A study of Mus musculus with 6 samples.

Results

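The 37 genes described here encode matrix proteins other than collagens: elastic fibre proteins, lysyl oxidases, proteoglycans, matrix glycoproteins and basement membrane proteins, with the receptor gene Pdgfra, a mark of fibroblasts and fat-cell precursors. They were taken by symbol from a table of 24016 usable gene rows, where all 37 were found, and 30 of them reached the expression minimum for testing, a mean of 0.5 FPKM over the 6 libraries. FPKM is the number of fragments divided by transcript length in kilobases and by library depth in megafragments. The table comes from polyA RNA sequencing of brown adipose tissue, the fat that burns fuel to make heat, from C57BL6 mice. The 2 groups are 3 libraries of genotype WT and 3 of genotype AdIl17rc KO, which the title ties to loss of the interleukin-17 receptor subunit IL-17RC in adipocytes. The sources used here do not give the promoter that drives the deletion, age, sex or housing temperature, nor whether each library is a separate animal, and p-values therefore cover no more than the variation among these 6 libraries, which may be technical.

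The matrix of fat is a mesh that holds each fat cell in a basement membrane and ties the lobules together with collagen and elastic fibres. Fibroblasts and fat-cell precursors make much of it, and endothelial cells, pericytes and adipocytes contribute. Small leucine-rich proteoglycans such as decorin coat collagen fibrils, fibrillin microfibrils guide elastin, lysyl oxidases cross-link both, and nidogens and perlecan join the laminin and collagen sheets of basement membranes.

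Il17rc, the targeted gene, was at 2.02 to 3.21 FPKM in the wild-type libraries and at 0.530 to 1.32 FPKM in the knockout libraries, so the groups did not overlap. Depth is not listed, and an approximation from the value of 1 fragment in low genes gave 31.6 to 39.1 megafragments per library. The FPKM sum of a library ran from 261770 to 383558, the highest in knockout library 2, where the small RNA feature Mir6236 alone held 146487. Adipocyte marker genes summed to 14010 to 17190 FPKM across the 6 libraries, so every library carried the markers of the labelled tissue. The median tested gene was lower in knockout by 0.29 on the log2 scale. Most differences below are therefore given as 2 values, and some as only 1 of them. The first is from the FPKM as deposited. The second, called scaled, is after each library was divided by its median ratio to the other libraries, and so shows the change relative to the median gene. For Il17rc they were -1.21 and -0.98, and it was not called over all genes (limma adjusted p = 0.151 and 0.226). Of all tested genes, 31.7% as deposited and 12.5% scaled were lower with groups that did not overlap.

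Most of the matrix genes had lower values in knockout, but none passed the test over all genes. As deposited, 28 of 30 tested members had a log2 fold change below 0 (knockout minus wild type), against 87.6% of all 10864 tested genes; scaled, 25 of 30 were negative against 50.4%. The median over the 30 members was -0.52 as deposited and -0.27 scaled, where the median of all tested genes was -0.29 and -0.0017. The wild-type and knockout libraries did not overlap, with knockout lower, for 14 members as deposited (31.7% of all tested genes) and for 12 scaled (12.5%). An unadjusted limma p was under 0.05, with knockout lower, for 15 members as deposited (24.8% of all tested genes) and for 11 scaled (8.61%). After Benjamini-Hochberg adjustment 0 members passed 0.05 in either limma fit (adjusted p from 0.151 to 0.844 as deposited and from 0.226 to 0.987 scaled); in each fit 0.00920% of all tested genes were called lower. An exact two-sided permutation test of 3 against 3 libraries cannot go below p = 0.1. Emilin1 and Thbs2 reached the minimum only through their wild-type values, so counts over tested members include 2 that were bound to differ. Nearest to the minimum were Thbs2 inside it, with a mean of 0.551 FPKM, and Thbs3 outside it, with 0.301 FPKM.

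The call depended on how the libraries were scaled. With all libraries brought to the same FPKM sum, Hspg2, Nid2, Tnxb, Loxl1, Tnc and Fn1 passed over all genes as lower (limma adjusted p from 0.0103 to 0.0351). In that fit 263 of 10864 tested genes were called, in either direction. Mir6236 held 146487 of the 383558 FPKM in knockout library 2, the highest sum. A common sum lowers libraries with a high sum relative to those with a low sum. It therefore lowers knockout library 2, and also wild-type library 1 (358005 FPKM), relative to knockout library 3 (261770 FPKM). The median log2 fold change over the tested members was -0.52 as deposited and -0.54 with a common sum. Why the named members passed with a common sum was not tested. Loxl1 also passed without knockout library 3 (limma adjusted p = 0.0400), a fit that called 77 genes in all.

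**Figure D1:**
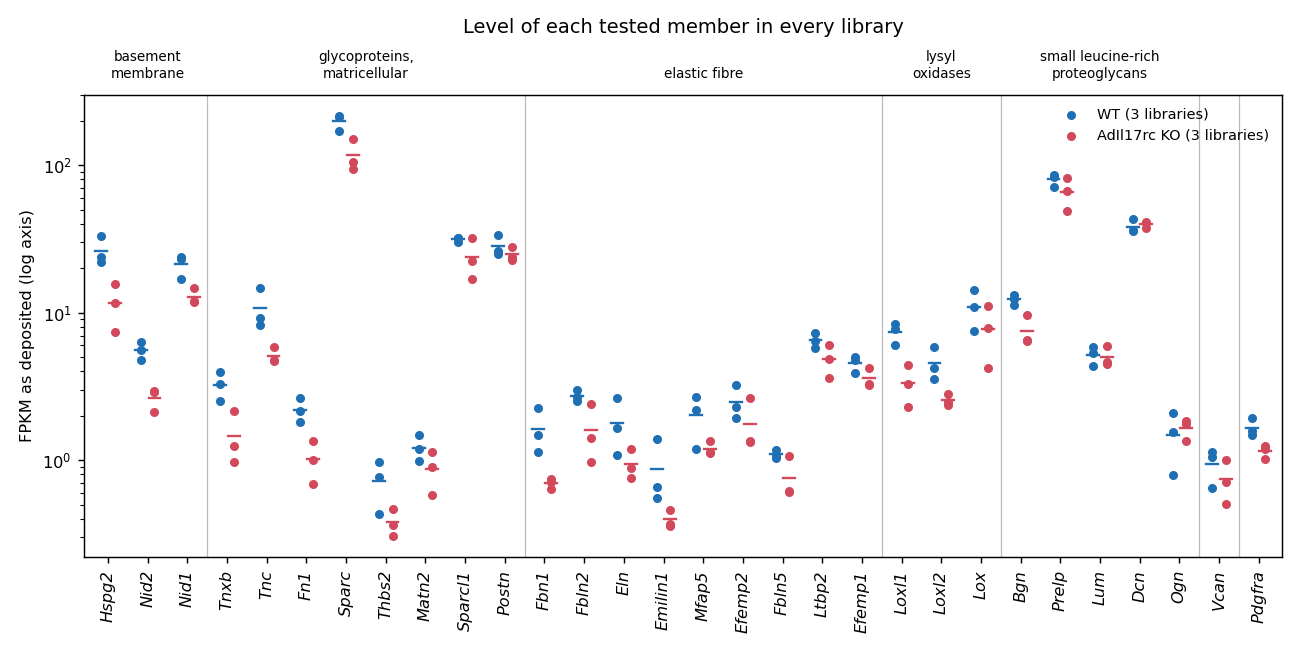
FPKM as deposited (log axis) of the 30 tested members in the 3 WT and 3 AdIl17rc KO libraries, with points for libraries and bars for group means, ordered by role; Vcan, a large proteoglycan, and Pdgfra, a receptor, stand at the right. The groups are apart for Hspg2, Nid1 and Nid2 at the left and intermixed for Lum, Dcn and Ogn.

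The start regions of 7 members are shown first, a set chosen after the values were seen. They are all members with a RefSeq promoter entry that either were lower in knockout with groups apart in all 3 fits described below (Hspg2, Nid1, Bgn and Sparc) or had a positive scaled difference (Ogn, Postn and Prelp). The 120 bases before each RefSeq start (build GRCm38.p6) are printed 5′ to 3′ on the gene's strand; Postn has 2 listed starts. Capitals mark the letters GGGCGG, called the GC box, the letters TATAAA, found in core promoters, and the letters CCAAT, each searched on both strands. Matches may overlap, as in Bgn. The stretches lie on the + strand at chr4:137468683-137468802 for Hspg2, chr13:13437482-13437601 for Nid1, chrX:73483481-73483600 for Bgn, chr13:49607895-49608014 for Ogn, and chr3:54359147-54359266 and chr3:54360987-54361106 for Postn. Those of Sparc, at chr11:55420081-55420200, and Prelp, at chr1:133921402-133921521, are on the - strand.
Hspg2: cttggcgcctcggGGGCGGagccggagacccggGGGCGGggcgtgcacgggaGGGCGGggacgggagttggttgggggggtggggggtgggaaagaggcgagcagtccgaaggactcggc
Nid1: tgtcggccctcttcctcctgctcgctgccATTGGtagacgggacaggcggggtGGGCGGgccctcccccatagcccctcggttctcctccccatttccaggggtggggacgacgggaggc
Bgn: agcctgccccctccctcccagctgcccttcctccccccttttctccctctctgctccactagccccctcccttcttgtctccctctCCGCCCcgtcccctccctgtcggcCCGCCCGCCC
Sparc: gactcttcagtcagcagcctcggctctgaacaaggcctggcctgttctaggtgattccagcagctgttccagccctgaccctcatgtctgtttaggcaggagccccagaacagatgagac
Ogn: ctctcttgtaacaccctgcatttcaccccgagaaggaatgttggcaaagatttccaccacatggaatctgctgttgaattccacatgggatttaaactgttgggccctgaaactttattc
Postn, start 1: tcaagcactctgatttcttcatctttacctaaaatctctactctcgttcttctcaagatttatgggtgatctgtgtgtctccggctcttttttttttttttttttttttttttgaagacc
Postn, start 2: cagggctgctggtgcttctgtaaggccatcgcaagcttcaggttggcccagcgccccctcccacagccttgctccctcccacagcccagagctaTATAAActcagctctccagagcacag
Prelp: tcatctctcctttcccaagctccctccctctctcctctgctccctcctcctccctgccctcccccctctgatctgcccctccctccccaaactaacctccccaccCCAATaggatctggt

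Within these stretches Hspg2 and Bgn held 3 GC box matches each and Nid1 held 1 with a CCAAT match, whereas Sparc, also lower, held none of the 3 motifs. Of the members with a positive scaled difference, Postn held a TATA match at start 2, Prelp held a CCAAT match, and Ogn and Postn start 1 held none. Over the 250 bases before the start, GC content was 70.0% for Hspg2, 64.4% for Nid1 and Bgn and 54.0% for Sparc. It was 55.6% for Prelp, 42.0% for Ogn, and 40.4% and 52.0% for Postn starts 1 and 2. RefSeq promoters were on hand for 24 of the 37 genes, with 31 starts. A GC box match stood in 18 of these 31 (58.1%), against 32.7% of all 32851 promoters of the same length. A TATA match stood in 5 (16.1% against 12.4%) and a CCAAT match in 8 (25.8% against 33.8%). These are descriptions of letters in a window.

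All 3 basement membrane genes were lower in knockout with groups apart in both fits, where 31.7% and 12.5% of all tested genes were. Hspg2, which encodes the large heparan sulphate proteoglycan perlecan, stood at 33.0, 22.2 and 23.7 FPKM in wild type and at 15.7, 11.7 and 7.45 FPKM in knockout, given here and below in the order of libraries 1, 2 and 3. Its mean was 26.3 ± 5.84 (SD, n = 3) against 11.6 ± 4.14 FPKM. This was the largest difference of the tested members in these 2 fits, a log2 fold change of -1.18 ± 0.27 (SE) as deposited and -0.86 ± 0.20 scaled (limma adjusted p = 0.151 and 0.233); it was -0.46 after GC and length correction, where Loxl1 was lowest at -0.58. Without knockout library 3 Hspg2 was at -0.91 and Loxl1 at -1.28 as deposited.

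The nidogens, which bridge laminin and collagen IV, were less spread. Nid2 stood at 6.35, 5.55 and 4.80 FPKM in wild type and at 2.96, 2.89 and 2.12 FPKM in knockout. Nid2 had the smallest p of the members in both limma fits, with a log2 fold change of -0.94 ± 0.18 (SE) as deposited and -0.65 ± 0.13 scaled (limma adjusted p = 0.151 and 0.226). Nid1 stood at 23.8, 16.9 and 23.3 FPKM in wild type and at 14.7, 11.8 and 12.0 FPKM in knockout, which made a log2 fold change of -0.70 ± 0.18 and -0.38 ± 0.12 scaled (limma adjusted p = 0.151 and 0.245). Knockout libraries 1, 2 and 3 lay close together for Nid1, whereas for Hspg2 knockout library 3 was the lowest. In bulk tissue, fewer cells of a type and less RNA per cell cannot be told apart, here or for the genes below.

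Among the glycoproteins and matricellular proteins, 4 of 8 tested genes were lower with groups apart in both fits, where 31.7% and 12.5% of all tested genes were. Sparc, a collagen-binding matricellular protein, was the most abundant member and held 31.2% to 40.9% of the members' summed FPKM. It stood at 212, 170 and 217 FPKM in wild type and at 150, 106 and 94.2 FPKM in knockout. The difference was -0.79 ± 0.20 (SE) on the log2 scale and -0.46 ± 0.15 scaled (limma adjusted p = 0.151 and 0.242).

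Tnc and Tnxb encode tenascins, large glycoproteins that modulate cell adhesion. Tnc stood at 14.7, 9.16 and 8.27 FPKM in wild type and at 4.73, 4.75 and 5.89 FPKM in knockout, which made a log2 fold change of -0.96 ± 0.22 (SE) and -0.65 ± 0.17 scaled (limma adjusted p = 0.151 and 0.234). Tnxb stood at 3.97, 2.51 and 3.27 FPKM in wild type and at 2.17, 1.25 and 0.970 FPKM in knockout, which made a log2 fold change of -0.96 ± 0.25 and -0.70 ± 0.19 scaled (limma adjusted p = 0.151 and 0.234). The knockout libraries were ordered differently for the 2 tenascins: knockout library 3 was the highest for Tnc and the lowest for Tnxb.

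Fn1, fibronectin, on which many cells attach, stood at 2.63, 1.81 and 2.14 FPKM in wild type and at 1.35, 1.01 and 0.685 FPKM in knockout. Its log2 fold change was -0.84 ± 0.21 (SE) and -0.60 ± 0.15 scaled (limma adjusted p = 0.151 and 0.233). Every knockout library was below every wild-type library.

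The other members of this class overlapped between the groups as deposited. Sparcl1, a relative of Sparc, was at 32.0, 32.3 and 30.1 FPKM in wild type and at 32.1, 22.4 and 17.01 FPKM in knockout, so knockout library 1 lay at the wild-type level. Thbs2, a thrombospondin, was at 0.965, 0.431 and 0.770 FPKM in wild type and at 0.304, 0.363 and 0.470 FPKM in knockout. Matn2, matrilin-2, was at 1.48, 0.992 and 1.18 FPKM in wild type and at 1.14, 0.900 and 0.578 FPKM in knockout. Their scaled log2 fold changes were -0.11, -0.27 and -0.12, none near the threshold (limma adjusted p of 0.427 and above).

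Postn, periostin, changed sign with the scaling. As deposited it was at 33.5, 25.2 and 26.1 FPKM in wild type and at 27.9, 24.0 and 22.9 FPKM in knockout, which made a log2 fold change of -0.17 (95% confidence interval -0.55 to 0.22). Scaled, the 3 wild-type libraries were at 25.2, 24.7 and 24.9 and the 3 knockout libraries at 27.8, 28.3 and 27.4, which no longer overlapped, with knockout higher by 0.16 (-0.03 to 0.35; limma adjusted p = 0.344). In the scaled fit 1403 of all 10864 tested genes were higher with groups apart. Postn was thus nearly level in all libraries once these were scaled to the median gene.

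The 9 tested elastic fibre genes all had a negative log2 fold change in both fits, where 87.6% and 50.4% of all tested genes did. Groups were apart with knockout lower for 33.3% and 22.2% of the 9, against 31.7% and 12.5% of all tested genes. For 2 of them, Fbn1 and Emilin1, the groups stayed apart in both fits. After GC and length correction they were apart for 0 of the 9. Fbn1, fibrillin-1, the main microfibril protein, stood at 1.49, 1.13 and 2.27 FPKM in wild type and at 0.742, 0.708 and 0.639 FPKM in knockout. The difference was -0.80 ± 0.21 (SE) on the log2 scale and -0.58 ± 0.21 scaled (limma adjusted p = 0.151 and 0.254). In the GENCODE annotation 20.3% of the Fbn1 exon bases are also exon bases of Gm9913 on the opposite strand, and the strand setting of the counting is not given in the sources used here, so the part of Gm9913 in this value was not tested.

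Emilin1, a microfibril-associated glycoprotein, stood at 1.39, 0.655 and 0.556 FPKM in wild type and at 0.463, 0.369 and 0.359 FPKM in knockout, roughly 47.2 to 180 fragments per library. Wild-type library 1 stood well above the rest, and Emilin1 reached the expression minimum only through wild type. Its log2 fold change was -0.56 ± 0.23 (SE) and -0.37 ± 0.17 scaled (limma adjusted p = 0.183 and 0.303).

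Eln, elastin itself, was at 2.65, 1.09 and 1.65 FPKM in wild type and at 1.19, 0.879 and 0.751 FPKM in knockout, where knockout library 1 lay above wild-type library 2. Mfap5, a microfibril protein, was at 2.202, 1.19 and 2.67 FPKM in wild type and at 1.35, 1.11 and 1.14 FPKM in knockout. For both, the overlap came from wild-type library 2, the lowest of its group. The log2 fold changes of Eln and Mfap5 were -0.63 and -0.52 as deposited and -0.39 and -0.27 scaled.

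The fibulins bind elastin and microfibrils and help elastic fibres assemble. Fbln2 was at 2.68, 2.52 and 3.01 FPKM in wild type and at 2.40, 1.42 and 0.978 FPKM in knockout. Fbln5 was at 1.18, 1.07 and 1.04 FPKM in wild type and at 1.06, 0.620 and 0.608 FPKM in knockout. The log2 fold changes of Fbln2 and Fbln5 were -0.68 and -0.36 as deposited and -0.42 and -0.15 scaled. Knockout library 1 lay just under the wild-type range for Fbln2 and within it for Fbln5, and knockout libraries 2 and 3 lay below it for both; scaled, the groups overlapped for Fbln2 too.

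Efemp2, fibulin-4, was laid out like Fbln5, at 3.24, 2.28 and 1.94 FPKM in wild type and at 2.62, 1.36 and 1.33 FPKM in knockout. Efemp1, fibulin-3, was at 4.99, 4.77 and 3.90 FPKM in wild type and at 4.22, 3.24 and 3.30 FPKM in knockout. Scaled, Efemp1 was close to level, with a log2 fold change of -0.013 (95% confidence interval -0.29 to 0.26). Ltbp2, a latent TGF-beta binding protein family member that associates with microfibrils, was at 6.47, 5.74 and 7.31 FPKM in wild type and at 5.999, 4.87 and 3.60 FPKM in knockout, a scaled difference of -0.11 (-0.51 to 0.28).

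Of the lysyl oxidases, the copper enzymes that cross-link collagen and elastin, Loxl1 and Loxl2 were lower in knockout with groups apart in both fits and Lox itself was not. Of all tested genes, 31.7% as deposited and 12.5% scaled were lower with groups apart. After GC and length correction 0 of the 3 lysyl oxidases were. Loxl1, which acts on elastin, stood at 7.81, 6.08 and 8.36 FPKM in wild type and at 3.28, 2.29 and 4.45 FPKM in knockout. Its difference was next to that of Hspg2 in size: -1.07 ± 0.23 (SE) on the log2 scale and -0.77 ± 0.23 scaled (limma adjusted p = 0.151 and 0.240). Loxl2, which acts on basement membrane collagen, stood at 5.87, 3.53 and 4.22 FPKM in wild type and at 2.48, 2.38 and 2.81 FPKM in knockout, a difference of -0.70 ± 0.19 and -0.41 ± 0.14 scaled (limma adjusted p = 0.153 and 0.246).

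Lox was at 10.9, 7.55 and 14.2 FPKM in wild type and at 4.19, 7.83 and 11.1 FPKM in knockout. The knockout libraries alone spanned more than the distance between the group means, and the scaled log2 fold change of -0.21 had a 95% confidence interval of -1.14 to 0.73. The lowest Lox value was in knockout library 1, which for Sparcl1, Fbln2, Fbln5 and Efemp2 was the highest of its group.

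The small leucine-rich proteoglycans were split. Bgn, biglycan, which binds collagen fibrils and growth factors, stood at 13.2, 11.4 and 12.4 FPKM in wild type and at 9.61, 6.40 and 6.51 FPKM in knockout. The groups were apart, with a log2 fold change of -0.70 ± 0.19 (SE) and -0.39 ± 0.12 scaled (limma adjusted p = 0.151 and 0.245).

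Dcn, decorin, the closest relative of biglycan in this list, was at 36.2, 35.8 and 43.1 FPKM in wild type and at 40.5, 41.5 and 37.8 FPKM in knockout. The groups overlapped, and the log2 fold change was 0.061 (95% confidence interval -0.28 to 0.40) as deposited and 0.39 (0.01 to 0.77) scaled. Dcn was the 1 member with a positive difference at an unadjusted limma p under 0.05 in the scaled fit (limma adjusted p = 0.273). Of all 10864 tested genes, 983 were higher at that unadjusted p in the same fit. Decorin and biglycan thus lay on opposite sides of 0 in the scaled fit; the difference between them was not tested.

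Lum, lumican, a regulator of fibril spacing, was at 4.36, 5.31 and 5.89 FPKM in wild type and at 4.61, 5.92 and 4.46 FPKM in knockout. Its log2 fold change was -0.050 (95% confidence interval -0.45 to 0.35) as deposited and 0.25 (-0.26 to 0.76) scaled, so the sign turned. Ogn, osteoglycin, was at 0.796, 1.56 and 2.09 FPKM in wild type and at 1.85, 1.76 and 1.35 FPKM in knockout, with wild-type library 1 the lowest of all. Its difference was 0.17 (-0.41 to 0.75) as deposited and 0.40 (-0.27 to 1.07) scaled.

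Prelp, which links basement membranes to the collagen around them, was next to Sparc in abundance, at 86.4, 83.2 and 71.0 FPKM in wild type and at 81.9, 66.9 and 49.1 FPKM in knockout. Its difference was -0.31 (95% confidence interval -0.77 to 0.16) as deposited and 0.025 (-0.34 to 0.39) scaled. Lum, Prelp and Postn were the 3 tested members whose sign differed between the fits.

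Vcan, versican, a large chondroitin sulphate proteoglycan, was at 1.06, 0.650 and 1.13 FPKM in wild type and at 0.505, 0.716 and 0.999 FPKM in knockout. The groups overlapped, with a scaled difference of -0.0083 (95% confidence interval -0.52 to 0.51). Pdgfra was at 1.57, 1.48 and 1.93 FPKM in wild type and at 1.02, 1.24 and 1.18 FPKM in knockout. Its groups were apart as deposited and not after scaling (log2 fold change -0.39 ± 0.16 SE and -0.14 ± 0.17, limma adjusted p = 0.178 and 0.659). Differences between Pdgfra and the matrix genes were not tested.

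The 7 members under the minimum rest on few fragments. Acan, aggrecan of cartilage, was at 0.00765 to 0.0284 FPKM over the 6 libraries and Mfap4 at 0 to 0.0222 FPKM. Fbn2, the fibrillin typical of embryonic tissue, was at 0.00228 to 0.00797 FPKM in wild type and listed at 0 in all knockout libraries. Fmod, fibromodulin, was at 0.0569 to 0.144 FPKM in wild type and 0.0188 to 0.0328 FPKM in knockout, Fbln1 at 0.271 to 0.295 and 0.103 to 0.230, Thbs3 at 0.244 to 0.450 and 0.150 to 0.273, and Mfap2 at 0.166 to 0.297 and 0.0293 to 0.342. Of the 7, 6 had a lower mean in knockout; at an approximate 2.13 to 15.1 fragments per library for Fmod and 0 to 2.95 for Fbn2, no fold change is given.

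**Figure D2:**
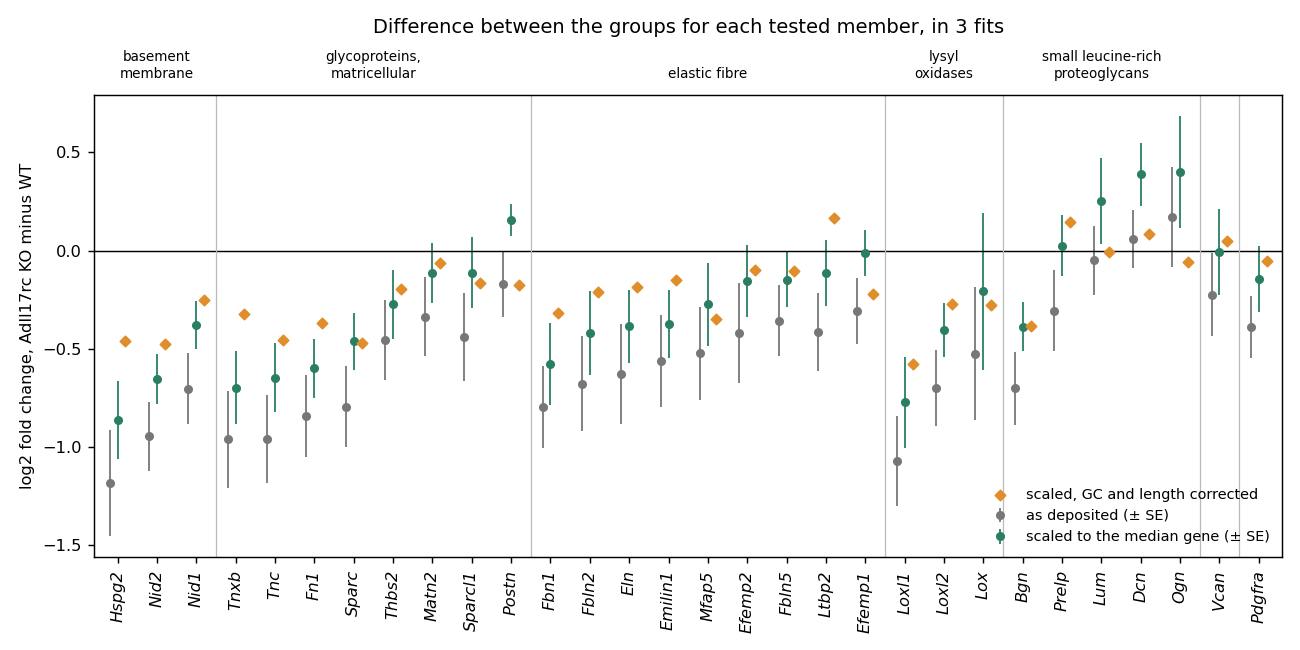
Log2 fold change (AdIl17rc KO minus WT, 3 libraries each) of the 30 tested members as deposited and scaled to the median gene, with SE bars, and after a further GC content and length correction (diamonds, no bars). Hspg2 is at -1.18, -0.86 and -0.46 in the 3 fits, and Ogn, Dcn and Lum lie at or above 0 once scaled.

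The order of the knockout libraries varied from member to member. Of the 30 tested members, scaled, knockout library 1 was the highest of the 3 knockout libraries for 16 and knockout library 3 the lowest for 16. Knockout libraries 1, 2 and 3 lay below every wild-type library for 16, 16 and 20 members. These counts by library were not made over all tested genes, so no share stands beside them. The median deviation of the members from the wild-type mean, scaled, was -0.26, -0.32 and -0.36 on the log2 scale in knockout libraries 1, 2 and 3. Over all tested genes it was 0.0078, -0.00033 and -0.0049. Among wild-type libraries, library 3 was the highest for 18 of the 30 and library 2 the lowest for 13. Without knockout library 1, 24 of 30 members were lower with groups apart as deposited, up from 14; over all genes tested in that fit the share was 61.6%, up from 31.7%.

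Differences across the members varied with the base composition of their transcripts. Over the 30 tested members the Spearman correlation between the GC content of the longest annotated transcript and the scaled log2 fold change was -0.72, and over all tested genes with a value it was -0.44. The points share the same 6 libraries, and genes are not independent replicates. The transcripts of the 12 members with groups apart in both fits had a median GC content of 53.0%, and those of the other 18 had 48.2%. At the low end, Postn, Ogn and Dcn had 36.3%, 36.3% and 37.4%, and none of them was lower in the scaled fit. At the high end Emilin1, Loxl1 and Hspg2 had 61.1%, 61.0% and 60.9%; Emilin1 is among those that reached the expression minimum only through wild type. Biglycan and decorin, on opposite sides of 0, were at 51.2% and 37.4%.

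When GC content and transcript length were regressed out of each library, the median over the 30 members moved from -0.27 to -0.20, with 26 of 30 negative against 52.6% of all genes in that fit. Members lower with groups apart went from 12 to 6 of 30, or 20.0% against 10.6% of all genes in that fit. These 6 were Hspg2, Nid1, Nid2, Sparc, Fn1 and Bgn. The corrected log2 fold change was -0.46 for Hspg2, -0.47 for Nid2, -0.25 for Nid1, -0.47 for Sparc, -0.37 for Fn1 and -0.38 for Bgn. Loxl1 had the largest corrected value, -0.58, but its groups overlapped. The differences of Fbn1, Tnxb and Hspg2 shrank to -0.32, -0.32 and -0.46, those of Bgn and Sparc hardly moved, and that of Dcn went from 0.39 to 0.086. Both values of each member are set side by side because the share of base composition in the difference was not tested.

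**Figure D3:**
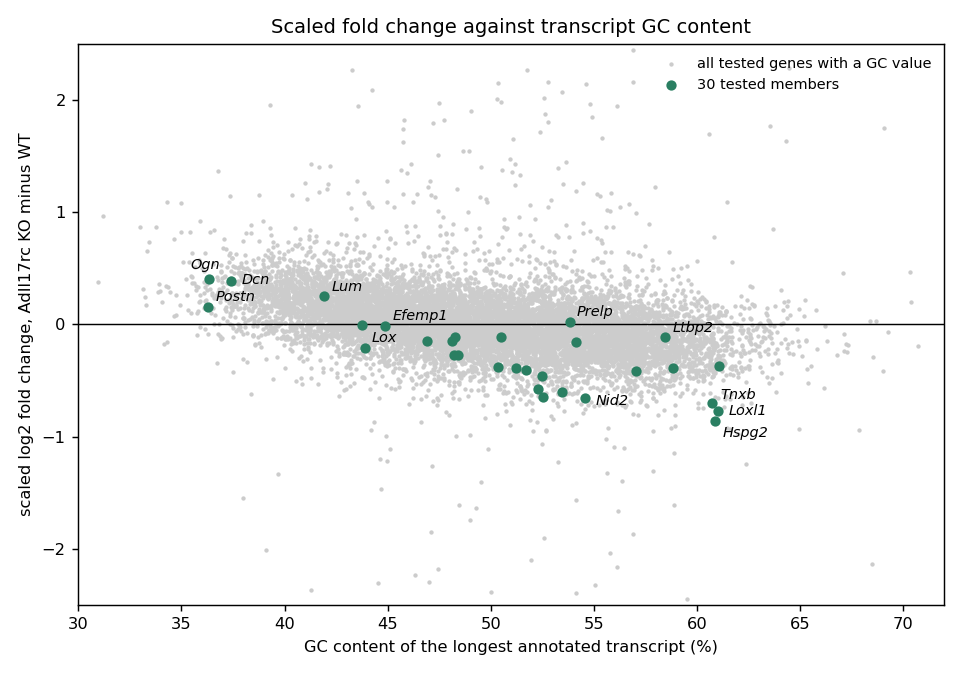
Scaled log2 fold change (AdIl17rc KO minus WT) against transcript GC content in percent, with all 10801 tested genes that have a GC value in grey (40 lie outside the axes) and the 30 tested members in green. Ogn, Dcn and Postn lie above 0 at 36.3% to 37.4% GC, and Hspg2, Loxl1 and Tnxb lie lowest at 60.7% to 61.0%.

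Other noncollagen matrix genes had medians nearer 0 than the members, a difference that was not tested. After GC and length correction the lists were closer, with medians of -0.12 for these genes and -0.20 for the members. Groups were then apart with knockout lower for 18.5% of these genes and 20.0% of the members, against 10.6% of all genes in that fit. Members and lists were chosen with earlier results of these data known. Of 27 tested noncollagen matrix genes that are not members, 25 were negative as deposited and 20 scaled, with medians of -0.46 and -0.14; groups were apart with knockout lower for 9 and 6, which is 33.3% and 22.2%, against 31.7% and 12.5% of all tested genes. Of these Ltbp4, a latent TGF-beta binding protein of elastic fibres, was at 8.05, 5.55 and 6.49 FPKM in wild type and at 4.43, 2.75 and 2.25 FPKM in knockout. Mgp, matrix Gla protein, was at 15.04, 15.08 and 13.73 FPKM in wild type and at 10.7, 8.71 and 6.91 FPKM in knockout. Thbs1 and Ecm1 had log2 fold changes of -1.44 and -0.76 as deposited and -1.11 and -0.48 scaled. The values of Thbs1 were below those of every tested member in both fits. None of the 4 passed over all genes (limma adjusted p from 0.144 to 0.151 as deposited). Of 14 tested collagens, 14 were negative in both fits (medians -0.90 and -0.62), with groups apart for 14 and 11, against 14 and 12 of the 30 noncollagen members. After GC and length correction the collagen median was -0.37, with groups apart for 4 of the 14 (28.6%). The difference between these lists was not tested.

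The enzymes that build the sugar chains of proteoglycans had a median difference near 0 once scaled, with larger differences in some genes. Of 25 tested, 25 were negative as deposited and 19 scaled, with medians of -0.36 and -0.073; 12 and 7 had groups apart with knockout lower (48.0% and 28.0%, against 31.7% and 12.5% of all tested genes), and 0 passed over all genes in either limma fit (9 and 3 at an unadjusted p under 0.05, all lower). Ndst1, which starts heparan sulphate modification, was at 12.1, 8.40 and 10.2 FPKM in wild type and at 6.34, 6.29 and 5.16 FPKM in knockout. Ext2, a heparan sulphate polymerase, was at 9.90, 6.94 and 7.92 FPKM in wild type and at 6.59, 4.31 and 3.69 FPKM in knockout. Ndst1 and Ext2 each had a scaled log2 fold change of -0.42 with groups apart (limma adjusted p = 0.234 and 0.248). Chst15, a chondroitin sulphotransferase, and Ugdh, which makes their sugar precursor, had scaled log2 fold changes of -0.49 and -0.24 (limma adjusted p = 0.160 and 0.164 as deposited).

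Markers of the cells that could supply these transcripts were compared in the same libraries. Of 15 tested fibroblast and precursor markers, 14 were negative as deposited and 10 scaled (medians -0.38 and -0.14); their summed level was 352.5 to 512.9 FPKM in wild type and 282.1 to 379.3 FPKM in knockout, which overlapped, and Tcf21 was at 0 in every library. All 11 endothelial markers were negative in both fits (medians -0.58 and -0.25); their sums were 216.6 to 376.9 FPKM in wild type and 140.7 to 228.1 FPKM in knockout. Of 11 smooth muscle and pericyte markers 9 were negative in both fits (medians -0.55 and -0.23), with sums of 108.1 to 124.0 and 60.48 to 106.9 FPKM. Scaled, groups were apart with knockout lower for 1 of 15 fibroblast, 1 of 11 smooth muscle and 4 of 11 endothelial markers (6.67%, 9.09% and 36.4%, against 12.5% of all tested genes). Scaled sums overlapped for all 3 lists: 345.5 to 385.8 in wild type and 337.2 to 378.0 in knockout for fibroblast, 93.25 to 108.0 and 72.30 to 106.5 for smooth muscle, and 212.3 to 283.5 and 167.1 to 227.3 for endothelial markers. The part of these cell types in the result was not tested.

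Markers of other cell types had other signs. Of 10 macrophage markers 4 were negative as deposited and 2 scaled, with sums of 53.67 to 128.3 FPKM in wild type and 78.62 to 88.86 in knockout, and of 5 tested Schwann cell markers 3 and 2 were negative (sums of 73.60 to 117.6 and 68.22 to 75.87 FPKM). Of 10 adipocyte markers 7 and 3 were negative (sums of 14010 to 17190 and 14910 to 17030 FPKM). Scaled, the adipocyte sums were 12930 to 13900 in wild type and 16970 to 19440 in knockout, which did not overlap, with knockout higher. Such a sum follows its most abundant genes. Of the 10 markers, scaled, 4 were higher and 1 was lower with groups apart, where 1403 and 1356 of all 10864 tested genes were. Lpl was at 0.71 on the scaled log2 scale, whereas Pparg was at -0.32 with groups apart and Cebpa at -0.70 with groups that overlapped. Skeletal muscle markers were positive for 14 of 14 tested in both fits, and their sum was 369.9 and 625.8 FPKM in knockout libraries 1 and 2 but 37.98 in knockout library 3 and 36.52 to 75.40 in wild type. The part of skeletal muscle RNA in the members' values was not tested. Of 11 cartilage and tendon markers 1 was tested, and 3 (Col9a1, Matn1 and Matn3) were at 0 in every library (sums of 1.41 to 2.38 and 0.787 to 1.49 FPKM); none of 6 mesothelial markers was tested (sums of 0.194 to 0.289 and 0.137 to 0.302 FPKM).

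**Figure D4:**
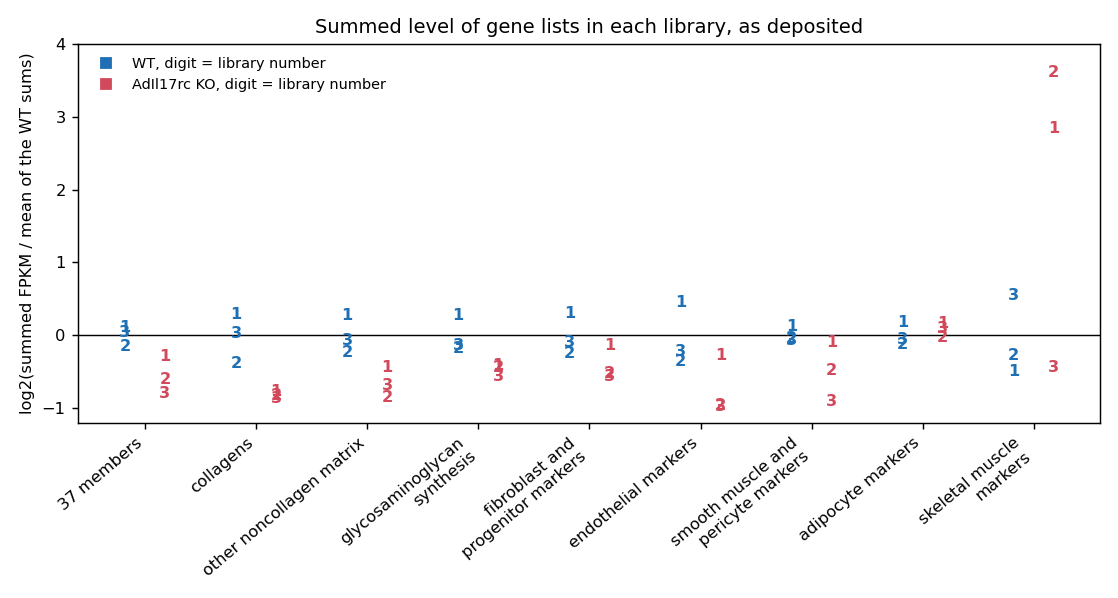
Log2 ratio of each library's summed FPKM of a gene list to the mean of the 3 WT sums, as deposited; digits are library numbers within WT and AdIl17rc KO. The 37 members and the collagens lie below 0 in all 3 knockout libraries. So do the other noncollagen matrix, glycosaminoglycan synthesis, fibroblast, endothelial and smooth muscle lists. As deposited, the median of all tested genes was itself -0.29. The skeletal muscle list is high in knockout libraries 1 and 2 only.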

How the data were processed

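Per the submitters' processing notes STAR 2.5.1b, Cufflinks 2.2.1 and DESeq2 1.10.1 were used with mouse build mm9. The annotation, strand setting and filters were not given in the sources used here. Deposited values are FPKM, 1 per gene and library, made by the authors. The table had 24043 lines, and 27 whose symbol had become a date were left out. The test was limma 3.58.1 (R 4.3.3) of genotype on log2(FPKM + 0.5), with trended empirical Bayes, over the 10864 genes whose mean reached 0.5 FPKM, two-sided, with Benjamini-Hochberg adjustment over all of them and a threshold of 0.05. Fold changes on this scale understate the change of low genes. Scaled values were divided by median-of-ratios factors of 0.836 to 1.33. GC content and length came from the longest GENCODE transcript of another build (GRCm38; 22633 symbols matched directly, 921 through an older name), with natural splines of 4 degrees of freedom; promoters came from RefSeq (GRCm38.p6). Depth was approximated from low values, and no interval was drawn from it. All 37 members, and for tested members the values in all 6 libraries, are named; of the other matrix and sugar-chain lists, up to 4 genes with the smallest p as deposited. The members and lists were chosen with earlier results of these data known. No pairing is given in the labels; deviations from the group means correlated at 0.10, -0.12 and -0.081 between libraries that share a number. The test was tried on simulated data. Alternatives were other pseudocounts, filters, scalings, variance models, a replicate block, GC and length correction and each library left out.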

Additional observations from a re-analysis of the deposited data

How the results depend on the processing

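The median over the tested members stayed negative in every setting run, and no tested member passed over all genes in a setting other than a common FPKM sum or, for Loxl1, leaving out knockout library 3. As deposited the median was -0.68 with a pseudocount of 0.1, -0.27, -0.26 and -0.25 with median-of-ratios, upper-quartile and quantile scaling, and -0.44 to -0.69 leaving out a library; scaled it was -0.36 with a pseudocount of 0.1 and -0.22 to -0.39 leaving out a library. Members lower with groups apart, a count added after seeing the data, were 14 of 30 as deposited (31.7% of all tested genes) and 12 of 30 scaled (12.5%). Leaving out a library gave between 13 (of 28 tested) and 24 (of 30) as deposited, and between 12 and 16 scaled. The 24 came without knockout library 1, where the share over all genes was 61.6%. For the other libraries left out no share was made, and with fewer libraries the groups come apart more readily for any gene. With GC and length correction 6 of 30 were apart (10.6% of all genes in that fit). Genes called over the whole table (2 in each fit) numbered 1 with no filter, 14 with robust empirical Bayes, 263 with a common sum, 1 with a replicate block and 3 to 77 leaving out a library as deposited; scaled they numbered 1 with a pseudocount of 1, no filter, robust empirical Bayes, a replicate block, or GC and length correction with or without that block, and 1 to 36 leaving out a library. The numbers 1 to 3 do not pair the libraries. The block, the variance models and dropping the filter leave each tested member's fold change as it was by design. They therefore cannot test its sign or that of the median. The cause of the shifts above was not tested.

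Signs turned for members near 0. As deposited Lum went to 0.25, 0.26 and 0.27, Postn to 0.16, 0.17 and 0.087, and Prelp to 0.025 and 0.040 (not with quantile scaling) under median-of-ratios, upper-quartile and quantile scaling, and Efemp1 to 0.00064 and 0.019 under the last 2. Scaled, Efemp1 took those same values under the same settings and Prelp went to -0.087 under quantile scaling. With GC and length correction, with or without the replicate block, Ltbp2 went to 0.16, Vcan to 0.049, Lum to -0.0073, Ogn to -0.060 and Postn to -0.17. Leaving out each library in turn, values crossed 0 for Lum (-0.17 to 0.039) and Ogn (-0.11 to 0.39) as deposited, and scaled for Efemp1 (-0.062 to 0.084), Ltbp2 (-0.22 to 0.023), Lox (-0.55 to 0.23), Prelp (-0.062 to 0.17), Vcan (-0.19 to 0.19), Sparcl1 (-0.26 to 0.055) and Matn2 (-0.20 to 0.026). Low members are limited by depth: FPKM keeps no counts, so no interval could be set.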
